A study of Homo sapiens with 6 samples.

Results

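The genes described here are the 10 genes named IGFBP1 to IGFBP7, IGF1R, IGF2R and IRS1, which together make up the receptors, the binding proteins and a main signalling substrate of the insulin-like growth factor (IGF) axis. They were chosen by name, by a rule that uses no measured value but with earlier results of these data known, and are 10 of the 57820 genes in each count table. RNA-seq was performed in AID-DivA cells, an osteosarcoma line that was made from U2OS cells and carries an inducible AsiSI endonuclease fused to an auxin-inducible degron. The WT group (3 samples, replicates 3 to 5) and the ARID1A-KO group (3 samples, replicates 3 to 5) were both untreated, so the enzyme had not been induced in either. ARID1A is the DNA-binding subunit of the BAF (SWI/SNF) chromatin remodelling complex, and the comparison asked which transcripts differ in cells without it. The knock-out was made with a pair of CRISPR guides and clones were then established. How many clones the sequenced samples came from is not given in the sources used here, so genotype and clone cannot be told apart. The study describes the 3 samples of a genotype as independent experiments, and the labels do not name separate cultures. The p-values measure the spread between these samples.

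IGF1 and IGF2 signal through IGF1R, a receptor tyrosine kinase whose activation recruits and phosphorylates IRS1, the docking protein that leads to PI3K and AKT. IGF2R, the cation-independent mannose 6-phosphate receptor, takes up IGF2 for degradation in lysosomes and carries lysosomal enzymes, and has no kinase activity of its own. The IGF-binding proteins are secreted, hold IGFs outside the cell and release them when proteases such as PAPPA cut them. IGFBP7 binds IGFs with much lower affinity than the others. The axis is active in bone growth and has long been studied in osteosarcoma.

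Counts of read pairs on the reverse strand came to between 59864474 and 72413018 per WT sample and between 54512105 and 84088708 per ARID1A-KO sample. ARID1A itself stood at 166, 178 and 177 CPM (reads scaled to a common library total) in WT and at 25.1, 27.5 and 25.2 CPM in ARID1A-KO, 6.69-fold lower (log2 fold change -2.74 ± 0.07 SE, edgeR adjusted p = 9.66e-08). All log2 fold changes are ARID1A-KO minus WT, from the quasi-likelihood test of edgeR, with p-values adjusted by Benjamini-Hochberg over 19599 genes, and a gene was called differentially expressed at an adjusted p under 0.05. In that comparison, 36.2% of all genes tested were called, 17.8% as higher and 18.4% as lower in ARID1A-KO. The median log2 fold change of all genes tested was 0.0066.

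Of the 10 genes, 8 passed the filter on low counts. IGFBP5 and IGFBP6 were called higher in ARID1A-KO, and IGFBP7, IGF2R and IRS1 were called lower. IGFBP3, IGFBP4 and IGF1R did not pass the test. The median log2 fold change of the 8 was -0.056. With a background of 36.2%, 5 of 8 is a count over few genes and carries no test of its own.

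To show the sequence upstream of a gene that rose and of a gene that fell, the 250 bases before the RefSeq transcription start (GRCh38.p14) of IGFBP5 and IGF2R are given 5′ to 3′ along the gene, with GC boxes (GGGCGG, either strand) in capitals. Each matched GRCh37, the build of the count tables, at a single place on the gene's own chromosome and strand, the part that was searched. The IGFBP5 sequence lies on the minus strand at chr2:217560273-217560522 and the IGF2R sequence on the plus strand at chr6:160389864-160390113.
IGFBP5: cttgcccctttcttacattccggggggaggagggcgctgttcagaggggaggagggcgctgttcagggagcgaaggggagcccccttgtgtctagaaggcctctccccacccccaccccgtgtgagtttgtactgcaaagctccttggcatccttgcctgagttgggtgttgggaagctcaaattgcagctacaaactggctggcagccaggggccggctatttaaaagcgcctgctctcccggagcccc
IGF2R: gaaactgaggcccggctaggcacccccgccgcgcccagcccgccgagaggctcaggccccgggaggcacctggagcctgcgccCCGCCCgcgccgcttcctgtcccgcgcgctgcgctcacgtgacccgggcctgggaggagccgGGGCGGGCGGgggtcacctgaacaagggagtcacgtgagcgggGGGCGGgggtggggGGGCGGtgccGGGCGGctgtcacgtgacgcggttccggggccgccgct
The IGFBP5 sequence held 8 CpG dinucleotides and no GC box at a GC content of 61.2%. The IGF2R sequence held 33 CpG dinucleotides and 6 GC boxes, 2 of which overlap, at a GC content of 79.2%. A GC box was present in 42.6% of the 35093 RefSeq promoter windows of the same length, and a TATAAA motif in 10.7%. Neither sequence held TATAAA on either strand, nor the AP-1 motif TGANTCA, which 6.57% of the windows held. RefSeq windows were found for 8 of the 10 genes, but not for IGFBP1 and IGFBP7. Among the 8, IGFBP4 was the gene with a TATAAA match, 29 bp before its start. IGFBP6, called higher, held 1 GC box, IRS1, called lower, held 4, and IGF1R, not called, held 2. A link between these sequences and the changes was not tested.

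IGFBP5, a binding protein stored in bone matrix, showed the largest rise of the 8 tested genes. It lies on the minus strand of chromosome 2 (ENSG00000115461.4, positions 217536828 to 217560248 in GRCh37), next to IGFBP2. Its level was 15.1, 9.30 and 13.4 CPM in the WT samples and 42.4, 50.4 and 51.5 CPM in the ARID1A-KO samples. Every ARID1A-KO sample was above every WT sample, and 49.5% of all genes tested likewise had groups that did not overlap in either direction. IGFBP5 was 3.82-fold higher in ARID1A-KO (log2 fold change 1.93 ± 0.16 SE, 95% confidence interval 1.57 to 2.30, edgeR adjusted p = 3.16e-05). By log2 fold change it ranked 283 from the top among the genes tested.

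IGFBP6, which binds IGF2 in preference to IGF1, stood at 33.5, 26.1 and 32.2 CPM in WT and at 40.8, 43.2 and 45.3 CPM in ARID1A-KO. The groups did not overlap. IGFBP6 was 1.41-fold higher in ARID1A-KO (log2 fold change 0.49 ± 0.10 SE, edgeR adjusted p = 0.00375).

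IGFBP7, a secreted protein also found in the matrix and around vessels, showed the largest fall of the 8 tested genes. It lies on the minus strand of chromosome 4 (ENSG00000163453.7, positions 57896939 to 57976551). WT samples held 64.8, 48.2 and 64.3 CPM and ARID1A-KO samples 7.62, 7.61 and 12.8 CPM. The groups did not overlap, and ARID1A-KO replicate 5 was the highest of its group. IGFBP7 was 6.28-fold lower in ARID1A-KO (log2 fold change -2.65 ± 0.21 SE, 95% confidence interval -3.12 to -2.18, edgeR adjusted p = 2.31e-05). Counted from the largest fall, it ranked 217 among the genes tested. Without ARID1A-KO replicate 5 the log2 fold change was -2.96.

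IGFBP7 also had counts on the forward strand, 1305 to 1828 in WT and 1367 to 1993 in ARID1A-KO, whereas IGFBP5 had at most 4 and IGFBP6 at most 7. Its 3′ end overlaps POLR2B, a subunit gene of RNA polymerase II on the plus strand, by 396 bp, and POLR2B held 23727 to 37338 reverse-strand counts per sample. The antisense gene IGFBP7-AS1, which overlaps IGFBP7 by 624 bp, held 0 to 5 counts. Counting by strand keeps these apart from IGFBP7. With strand ignored the log2 fold change of IGFBP7 was -2.66. Its counts with strand ignored were below its reverse-strand counts in every sample, for instance 3810 against 4326 in WT replicate 3. In ARID1A-KO replicate 3 they were 474 against 519. The forward-strand reads were thus not simply added there, and the value of -2.66 cannot show their effect.

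IGFBP4, which inhibits IGF action until PAPPA cleaves it, stood at 10.99, 10.7 and 9.90 CPM in WT and at 8.87, 9.34 and 11.9 CPM in ARID1A-KO. The groups overlapped. Its log2 fold change was -0.065 ± 0.12 SE, with a 95% confidence interval from -0.35 to 0.22 and an edgeR adjusted p of 0.72.

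IGFBP3, the main carrier of IGFs in serum, was detected at 13, 15 and 18 counts in WT and at 36, 30 and 24 counts in ARID1A-KO. On the CPM scale the groups overlapped, at 0.195, 0.211 and 0.309 in WT against 0.529, 0.546 and 0.273 in ARID1A-KO. The log2 fold change of 0.89 ± 0.35 SE did not pass the test (edgeR adjusted p = 0.0743, 95% confidence interval 0.11 to 1.68). Without ARID1A-KO replicate 5, the sample that lay within the WT range, IGFBP3 was called higher (log2 fold change 1.18, adjusted p = 0.0159).

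IGFBP1, a binding protein secreted mainly by liver, and IGFBP2, an abundant binding protein in many tumours, were too low to be tested. IGFBP1 had 4, 1 and 3 counts in WT and 7, 2 and 9 in ARID1A-KO. Pooled over the samples of a genotype, its exact Poisson 95% intervals were 0.0176 to 0.0805 CPM in WT and 0.0506 to 0.135 CPM in ARID1A-KO, and they overlapped. IGFBP2 had 2, 0 and 0 counts in WT and 4, 3 and 3 in ARID1A-KO. A count of 0 was taken to allow up to 3 counts, as a one-sided limit. Over the plain total of reverse-strand counts, unlike the other CPM values, this was 0.0414 CPM in WT replicate 4 and 0.0501 CPM in WT replicate 5. Such intervals and limits cover counting error only, and no fold change is given for either gene.

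**Figure D1:**
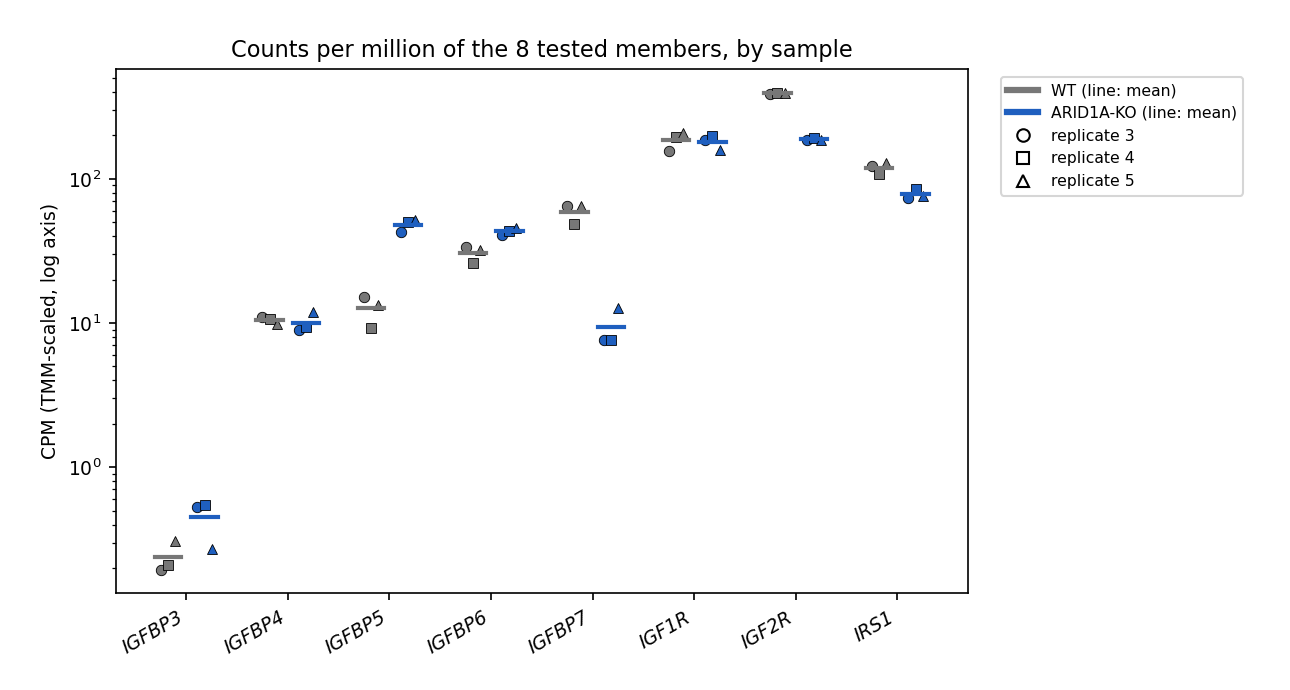
Level of the 8 tested genes in each sample, in CPM on a log axis. Grey symbols are WT and blue symbols ARID1A-KO, the symbol shape gives the replicate and the line the group mean. IGFBP5 (blue above grey) and IGFBP7 (blue below grey) lie farthest apart, and IGFBP3, IGFBP4 and IGF1R overlap between the groups.

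Among the receptors, IGF2R fell and IGF1R did not pass the test. IGF2R lies on the plus strand of chromosome 6 (ENSG00000197081.8, positions 160390131 to 160534539). Its level was 387, 394 and 394 CPM in WT and 185, 192 and 186 CPM in ARID1A-KO, with little spread in either group and no overlap. IGF2R was 2.09-fold lower in ARID1A-KO (log2 fold change -1.06 ± 0.055 SE, 95% confidence interval -1.19 to -0.94, edgeR adjusted p = 2.82e-06). A pair of genes on the same strand, RP11-288H12.3 and RP11-288H12.4, overlap it by 3131 bp each and held 98 to 472 counts per sample, and reads there cannot be assigned to IGF2R or to them with certainty. AIRN, the antisense gene at this locus, was listed at 0 counts in every sample.

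IGF1R stood at 157, 194 and 208 CPM in WT and at 187, 197 and 157 CPM in ARID1A-KO, and the groups overlapped. Its log2 fold change was -0.047 ± 0.11 SE, with a 95% confidence interval from -0.31 to 0.21 (edgeR adjusted p = 0.782). Per exonic length (RPKM, the CPM divided by the exonic length in kb), IGF2R transcripts were 2.89 ± 0.41 times those of IGF1R in WT (SD, n = 3) and 1.42 ± 0.16 times in ARID1A-KO (SD, n = 3).

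IRS1, the substrate through which IGF1R and the insulin receptor reach PI3K, stood at 123, 108 and 128 CPM in WT and at 73.7, 85.6 and 75.5 CPM in ARID1A-KO. The groups did not overlap. IRS1 was 1.53-fold lower in ARID1A-KO (log2 fold change -0.61 ± 0.085 SE, 95% confidence interval -0.80 to -0.42, edgeR adjusted p = 5.35e-04). It had 225 to 448 forward-strand counts per sample, and with strand ignored its log2 fold change was -0.57.

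Levels of different genes were compared per exonic length. In WT, IGF2R was the highest of the 10 genes at 39.3 ± 0.42 RPKM (SD, n = 3). IGFBP7 at 30.6 ± 4.9 RPKM and IGFBP6 at 23.9 ± 3.1 RPKM came next and overlapped each other. IGF1R at 13.8 ± 2.0 RPKM and IRS1 at 12.02 ± 1.1 RPKM also overlapped, and IGFBP4 at 4.76 ± 0.26 RPKM, IGFBP5 at 1.96 ± 0.46 RPKM and IGFBP3 at 0.0534 ± 0.014 RPKM followed without overlap.

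In ARID1A-KO, IGFBP6 was the highest at 33.7 ± 1.8 RPKM (SD, n = 3), above IGF2R at 18.9 ± 0.35 RPKM and IGF1R at 13.4 ± 1.5 RPKM. IRS1 at 7.86 ± 0.64 RPKM, IGFBP5 at 7.47 ± 0.77 RPKM, IGFBP7 at 4.84 ± 1.6 RPKM and IGFBP4 at 4.55 ± 0.75 RPKM followed, each overlapping the next in order. IGFBP3 came after these at 0.101 ± 0.034 RPKM. Within a sample, IGFBP7 was at 15.9 ± 1.5 times IGFBP5 in WT and at 0.644 ± 0.17 times in ARID1A-KO (SD, n = 3).

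Summed over the 7 binding proteins, the level was 67.2, 51.7 and 65.1 RPKM in WT and 46.6, 49.9 and 55.5 RPKM in ARID1A-KO. These sums overlapped, while their makeup differed. IGFBP7 held 49.8 ± 1.4% of the sum in WT and 9.43 ± 2.2% in ARID1A-KO. The share of IGFBP6 was 39.1 ± 0.40% in WT and 66.6 ± 2.5% in ARID1A-KO, and that of IGFBP5 was 3.16 ± 0.35% and 14.7 ± 0.83%. IGFBP4 held 7.88 ± 1.3% in WT and 8.93 ± 0.69% in ARID1A-KO, with overlap. Leaving IGFBP7 out, the sum was 30.7 ± 3.6 RPKM in WT and 45.9 ± 3.1 RPKM in ARID1A-KO, without overlap. Shares of a sum are bound to each other, and no test was made on them.

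**Figure D2:**
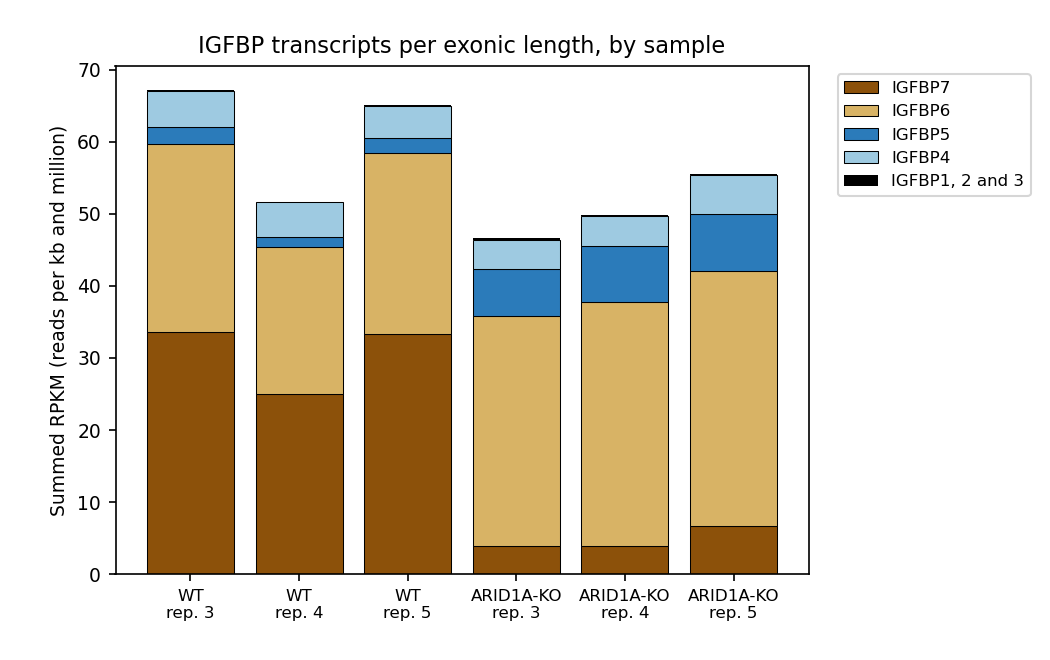
Summed RPKM of the binding proteins in each sample (vertical axis, starting at 0), with the contribution of each gene as a stacked segment. IGFBP7 makes up 48.3% to 51.1% of the bar in the WT samples and 7.89% to 11.9% in the ARID1A-KO samples, and IGFBP1, IGFBP2 and IGFBP3 together are barely visible.

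Each change was also set beside those of the other tested genes whose start lay within 5 Mb. Around IGF2R there were 40 such genes, with a median log2 fold change of -1.04. Of these, 32 were called lower and 3 higher, and 19 fell as much as IGF2R or more. With the median of its neighbours taken off, the log2 fold change of IGF2R was -0.017 and it was not called (edgeR adjusted p = 0.837).

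Around the called binding proteins, the neighbours' medians lay closer to 0. Around IGFBP5, the median over 83 genes was 0.0074 on the log2 scale, 13 were called higher and 12 lower, and 0 rose as much as IGFBP5. Around IGFBP7, 41 genes had a median of 0.10, with 8 called higher and 8 lower. The gene RP11-16N2.1, with a log2 fold change of -7.72 and named after its value was seen, was the 1 neighbour that fell more than IGFBP7. IGFBP6 had 244 neighbours with a median of 0.016, and 24 of them rose as much or more. With the neighbours' medians taken off, the 3 genes were still called, at log2 fold changes of 1.93, -2.75 and 0.48 for IGFBP5, IGFBP7 and IGFBP6.

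IRS1 had 58 neighbours with a median log2 fold change of -0.11, of which 16 were called lower and 8 higher and 10 fell at least as much as IRS1. It was called with the median taken off (log2 fold change -0.51, edgeR adjusted p = 0.00199). IGF1R, with 43 neighbours at a median of -0.14, was not called in either fit.

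**Figure D3:**
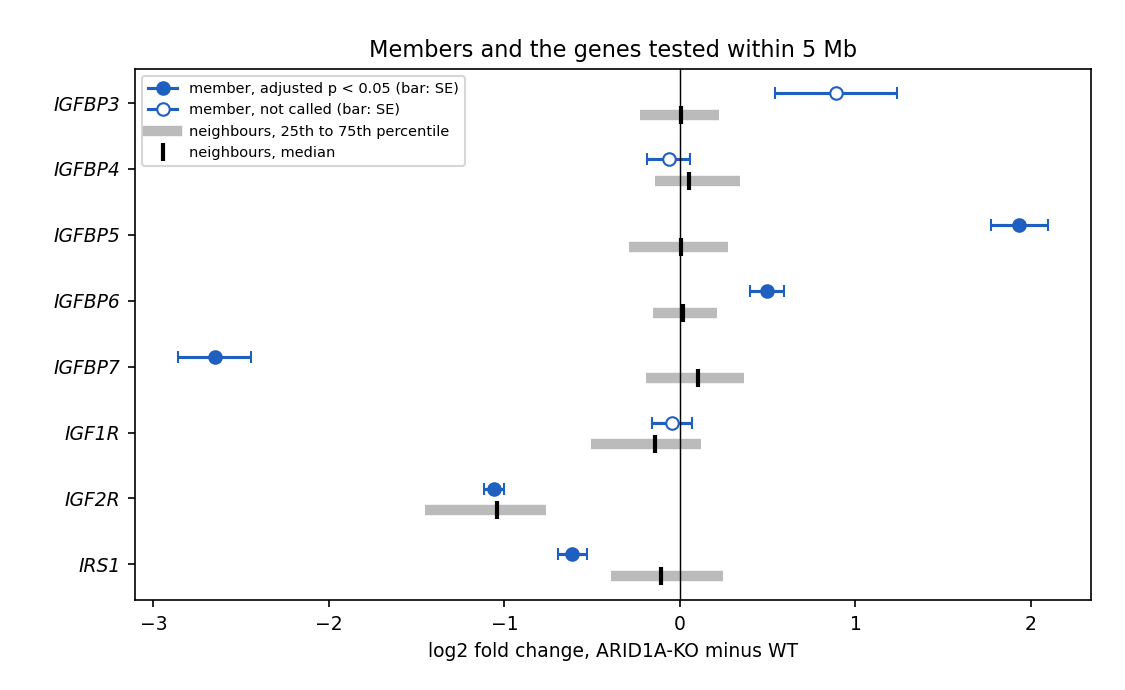
Log2 fold change (ARID1A-KO minus WT) of the 8 tested genes, as points with SE bars, above the median and the 25th to 75th percentile of the genes tested within 5 Mb. Filled points were called. IGF2R lies at the median of its neighbours (-1.06 against -1.04), while IGFBP5 and IGFBP7 lie far outside the bars below them.

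**Figure D4:**
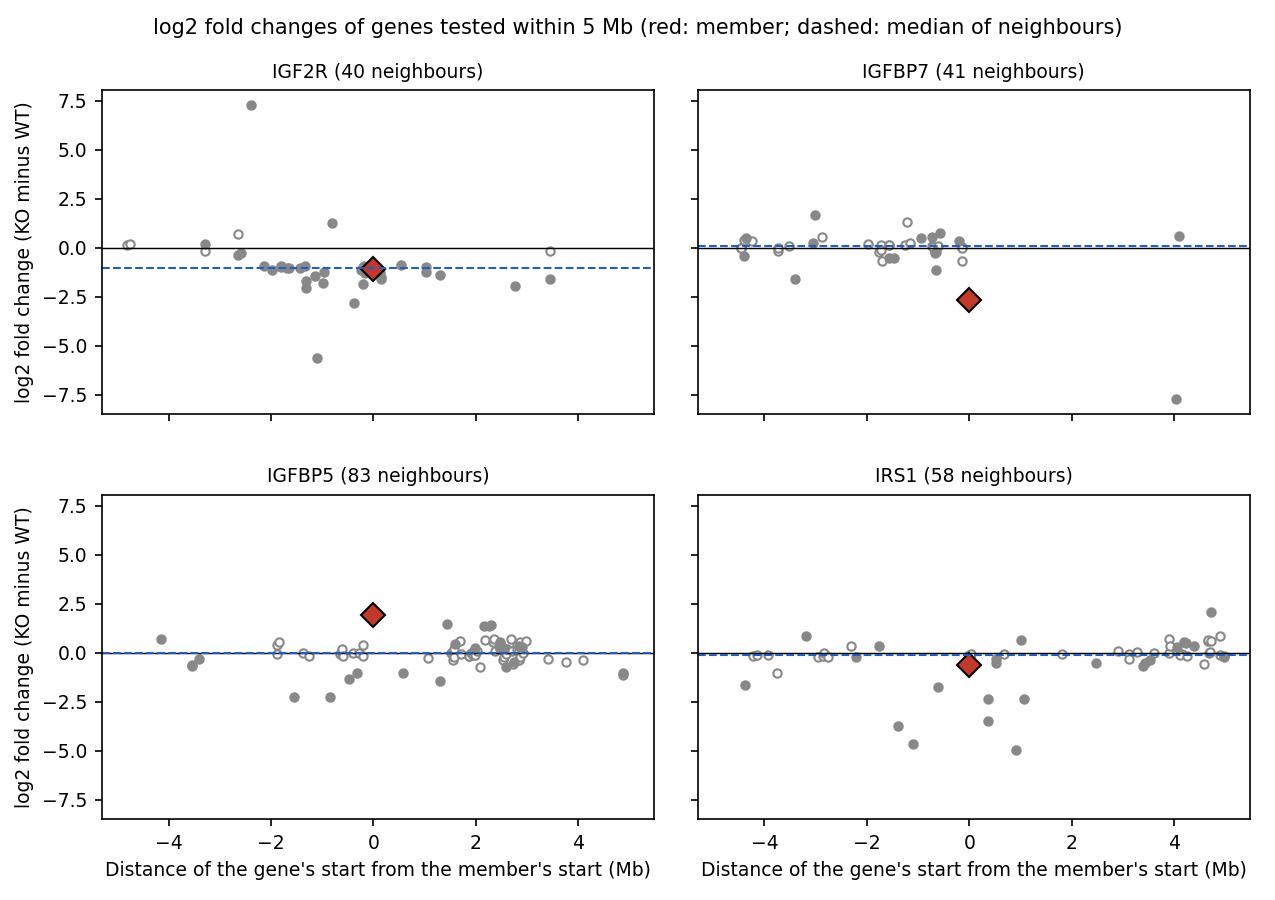
Log2 fold change of every tested gene against the distance of its start from that of IGF2R, IGFBP7, IGFBP5 or IRS1 (red diamond), in Mb. Filled grey points were called and open points were not, and the dashed line is the neighbours' median. Most points around IGF2R lie below 0, and those around IGFBP5 and IGFBP7 lie on both sides of it.

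The other genes of the axis were taken from a list of 24 ligands, related receptors, adaptors, proteases and IGF2 mRNA-binding proteins. Of these, 19 were tested, 5 were called higher and 6 lower in ARID1A-KO, and 8 were not called. Their median log2 fold change was 0.019. The 11 called genes of 19 stand against 36.2% of all genes tested.

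IGF2, the fetal growth factor bound by IGF2R and by the binding proteins, was at 23.1, 22.1 and 31.7 CPM in WT and at 60.5, 62.2 and 62.9 CPM in ARID1A-KO. It was 2.42-fold higher in ARID1A-KO without overlap (log2 fold change 1.27 ± 0.12 SE, edgeR adjusted p = 7.42e-05). With the median of its neighbours taken off, its log2 fold change was 1.01 and it was still called. IGF1 had 1 to 4 counts in WT and 4 to 10 in ARID1A-KO and was not tested. INS, the insulin gene, was listed at 0 counts in every sample. INS-IGF2, also listed at 0 counts, overlaps INS by 1431 bp and IGF2 by 17066 bp on the same strand. Reads there cannot be assigned to any of these genes with certainty.

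Of 4 tested proteases that cut the binding proteins, 3 fell and 1 did not pass the test. PAPPA, which releases IGF from IGFBP4, stood at 53.9, 57.1 and 59.8 CPM in WT and at 23.3, 23.1 and 21.9 CPM in ARID1A-KO, without overlap (log2 fold change -1.32, edgeR adjusted p = 2.43e-06). Its relative PAPPA2, which cleaves IGFBP3 and IGFBP5, was at 14.1, 14.95 and 15.7 CPM in WT and at 5.32, 4.62 and 6.35 CPM in ARID1A-KO (log2 fold change -1.45, adjusted p = 3.62e-05). ADAM12, a metalloprotease, also fell (log2 fold change -0.71, adjusted p = 1.97e-04), and the serine protease HTRA1 had a log2 fold change of 0.21 and did not pass the test.

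The stanniocalcins, which inhibit PAPPA, were both called higher at low levels. STC1 was at 1.02, 0.451 and 0.653 CPM in WT and at 2.73, 2.22 and 2.01 CPM in ARID1A-KO, without overlap (log2 fold change 1.71, edgeR adjusted p = 0.00122). STC2 had a log2 fold change of 0.93 (adjusted p = 0.00549).

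Among the related receptors, INSR, the insulin receptor, had a log2 fold change of 0.08 and was not called. M6PR, the other mannose 6-phosphate receptor, had 0.13 (edgeR adjusted p = 0.139). Of the adaptors, SHC1 was called higher (log2 fold change 0.50, adjusted p = 0.00127) and GAB1 lower (log2 fold change -0.64, adjusted p = 0.0014). SHC1 shares 1556 bp with PYGO2 on the same strand. GAB1 had 50 neighbours at a median of -0.53 and was no longer called with that median taken off (log2 fold change -0.11, adjusted p = 0.45). IRS2, the other widely expressed IRS protein, had 0 counts in WT and 0 to 3 in ARID1A-KO. IRS4, GRB10, GRB14 and SH2B1 did not pass the test.

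The IGF2 mRNA-binding proteins did not move together. IGF2BP1 was called higher (log2 fold change 0.72, edgeR adjusted p = 0.00272), and IGF2BP2 (log2 fold change -0.48, adjusted p = 0.0141) and IGF2BP3 (log2 fold change -0.69, adjusted p = 4.38e-04) were called lower. IGF2BP2 was not called with its neighbours' median taken off (log2 fold change -0.25, adjusted p = 0.152).

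**Figure D5:**
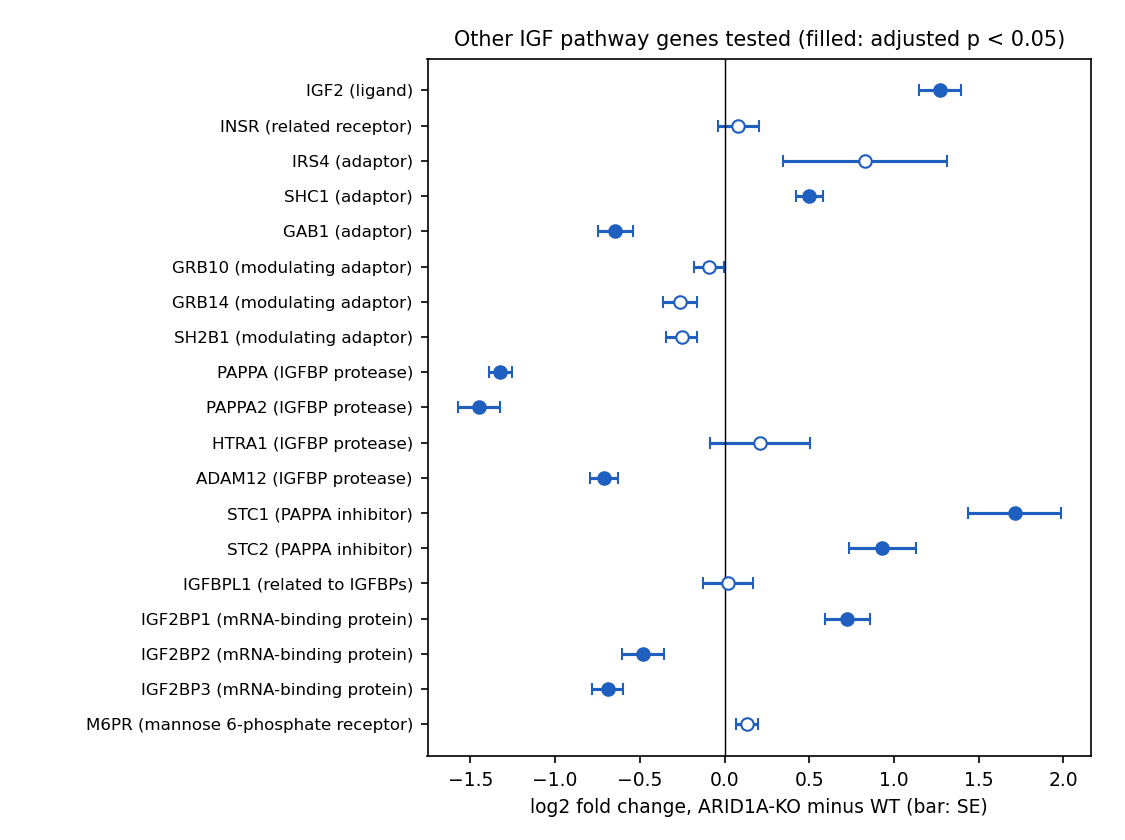
Log2 fold change (ARID1A-KO minus WT) with SE bars of the 19 tested genes of the IGF axis list. Filled points were called and open points were not. IGF2 and STC1 lie highest and PAPPA and PAPPA2 lowest among the called genes.

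The labelled cell type was checked against 10 osteoblast markers. RUNX2 (14.96 ± 1.4 CPM in WT and 14.6 ± 3.8 CPM in ARID1A-KO, SD, n = 3), SPARC and COL1A1 were expressed, whereas SP7, BGLAP and IBSP held at most 12 counts in any sample and COL1A2 at most 20. The summed level of the osteoblast markers was 221.5 to 230.0 RPKM in WT and 127 to 132 RPKM in ARID1A-KO, with ALPL, SPP1, SPARC and COL1A1 of 7 tested markers called lower. The sum of 4 epithelial markers, nearly all of it KRT8, was 51.9 to 62.5 RPKM in WT and 29.9 to 31.4 RPKM in ARID1A-KO, with KRT8 and CDH1 called lower and EPCAM higher. The 4 blood markers summed to at most 0.519 RPKM, with CD3E at 0 or 1 count and PTPRC called lower. The endothelial markers CDH5 and VWF summed to at most 0.269 RPKM and 3 liver markers to at most 0.141 RPKM, with TTR at 0 to 2 counts. The part of these differences in the levels of the IGF genes was not tested. In bulk RNA, fewer cells that express a gene and less RNA per cell cannot be told apart.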

How the data were processed

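The authors mapped the read pairs with STAR (Roddy workflow) on hg19/GRCh37. The deposited values are raw featureCounts counts, whole numbers for each gene. The labels name polyA RNA, whereas their protocol names a stranded total RNA kit. Forward-strand counts came to 5.83% to 6.15% of the reverse-strand counts, and the latter were used. The deposited exonic length of each gene was used for RPKM. Deposited FPKM and TPM columns were not used here. The methods name gene annotation v.29 lift 37, and identifiers in the tables carry no lift suffix.

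Counts were filtered with filterByExpr, scaled by TMM and fitted with edgeR 4.0.16 (quasi-likelihood, R 4.3.3) over all 6 samples with no covariate. The common biological coefficient of variation was 0.111. The 10 genes and the gene lists were chosen with earlier results of these data known. Genes named are these 10, ARID1A, genes overlapping them, the IGF axis and marker lists, and for IGFBP7 the 3 genes of mean log2 CPM over 1 most correlated with it. All pairs of samples differed by more than counting noise (chi-square per gene 7.57 to 128). The fits were tested on simulated data. Results of some marker genes are not reported here. Alternatives were unstranded counts, RLE, DESeq2 1.42.0, other filters, the replicate block, each sample left out and the median of neighbours within 5 Mb as an offset. For RPKM they were unstranded counts, no TMM factors and each sample left out.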

Additional observations from a re-analysis of the deposited data

How the results depend on the processing

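The number of the 10 genes called was 5 in the main comparison and under unstranded counts, RLE, DESeq2, at least 10 counts in every sample and the replicate block. It was 6 without a filter and without ARID1A-KO replicate 5, where IGFBP3 was added (log2 fold changes 0.88 and 1.18), and 4 with the neighbours' median taken off, where IGF2R was lost (-0.017). GAB1 (-0.11) and IGF2BP2 (-0.25) were also lost there. The calls of IGFBP5, IGFBP6, IGFBP7 and IRS1 held under all 13 alternatives each, at log2 fold changes of 1.75 to 2.08, 0.39 to 0.55, -2.96 to -2.52 and -0.68 to -0.51.

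Reversals were limited to genes not called. With each sample left out, IGFBP4 ranged from -0.21 to 0.020, IGF1R from -0.17 to 0.043, HTRA1 from -0.15 to 0.41 and IGFBPL1 from -0.078 to 0.084. The values that reversed were 0.0198 for IGFBP4, 0.0365 and 0.0427 for IGF1R, -0.0187 and -0.154 for HTRA1, and -0.00187, -0.0330 and -0.0777 for IGFBPL1. With the neighbours' median taken off, IGF1R was at 0.092, HTRA1 at -0.197 and IGFBPL1 at -0.083. The cause was not tested. SH2B1 was called under 5 alternatives and GRB14 without WT replicate 4 (-0.34). Mean RPKM of IGF2R was 38.7 in WT without TMM factors and 19.7 in ARID1A-KO with strand ignored, and that of IRS1 was 8.76 in ARID1A-KO with strand ignored.

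Over all genes, between 5285 (without ARID1A-KO replicate 4) and 8223 (no filter) were called, against 7099 in the main comparison and 6884 with DESeq2. With the replicate block, 7477 genes were called, and 5 of the 10 genes and 12 of the 19 other IGF axis genes. Deviations of same-numbered samples correlated at -0.244, 0.488 and 0.319 for replicates 3, 4 and 5. WT replicates 4 and 5 correlated best with their own number, but WT replicate 4 did nearly as well with ARID1A-KO replicate 3 (0.485). WT replicate 3 correlated best with ARID1A-KO replicate 5 (0.405). Seen from the other group, ARID1A-KO replicates 3 and 5 correlated best with WT replicates 4 and 3. Deviations from a mean of 3 samples are bound to each other, so these values cannot decide whether same-numbered samples are pairs. Depth limits IGFBP1 and IGFBP2, which held at most 9 and 4 counts. IGFBP3 held 13 to 36 counts per sample, and its call changed without ARID1A-KO replicate 5 and without a filter. That replicate had the most reverse-strand counts of all samples (84088708) and 24 counts of IGFBP3, the fewest of its group. The reason for the changed call was not tested.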

Other observations

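Over the 6 samples, the log2 CPM of IGFBP7 was most alike in INPP4B, a phosphoinositide phosphatase gene (Pearson r = 0.9989), PHACTR4, a regulator of actin and protein phosphatase 1 (0.9988), and PALLD, an actin-associated protein gene (0.9988), among 13061 genes searched. Their log2 fold changes were -2.21, -0.43 and -2.18. The 6 points fall into a pair of genotypes, which sets most of the likeness, and the values are a description.

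IGF2-AS, the antisense gene that overlaps IGF2 by 8164 bp, held 7, 3 and 3 reverse-strand counts in WT and 24, 19 and 31 in ARID1A-KO.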
